A study of Mus musculus with 2 samples.

Results

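The 37 genes described here encode the granule proteins, the oxidase subunits, the cytosolic and other effectors and the surface receptors that are typical of neutrophils. These genes were read in pre CFU-E from WT and ESAM-KO animals that had been given 5-FU. They were chosen as a list by name, with earlier results of the same 2 arrays known, so their ratios are a description and no test of them was made. Of the 37 genes, 36 had at least 1 probe named through the reference table, with 42 probes in all, out of 20660 named genes on the array. Olfm4 was matched to no probe.

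Pre CFU-E are committed precursors that lead from the megakaryocyte and erythroid branch to the erythroid colony-forming cell. ESAM is an endothelial cell-selective adhesion molecule that is also found on hematopoietic stem cells, and the arrays asked how gene expression in these erythroid precursors differs without it while the marrow recovers from 5-FU, an antimetabolite that kills dividing cells. Both groups were C57BL/6 background mice of 8 to 12 weeks, and both had received 5-FU at 120 mg/kg and were killed on day 8, so no untreated cells were compared here. The knockout removes Esam throughout the animal and not in blood cells alone. In each group, marrow of 3 mice was pooled and a fraction negative for lineage (Lin) markers and Sca1, negative to low for FCgRII/III, low for CD41 and positive for c-Kit, endoglin and CD150 was sorted. The Lin antibodies included those against Mac1 and Gr1, which mark neutrophils. RNA of each pool was hybridised to 1 Agilent 1-colour array, so there are no replicates and no SD or p-value can be given. A difference between genotypes cannot be told apart from a difference between the 2 pools, sorts or amplifications. In such bulk RNA, fewer cells of a type and less RNA per cell cannot be told apart either.

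Neutrophils make their granules in sequence as they mature in the marrow. Primary (azurophil) granules with myeloperoxidase and serine proteases form first at the promyelocyte stage, secondary (specific) granules with lactoferrin and lipocalin follow in myelocytes, and tertiary granules rich in gelatinase come later. Surface receptors for chemoattractants and the full set of late effector proteins belong to the last steps of maturation. Most of these genes are not typical of erythroid precursors.

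Values below are the processed intensities of a probe, in the arbitrary units of the scanner software after background subtraction. The log2 ratio is that of ESAM-KO over WT after each array was divided by its own 75th percentile, which was 201.4 in WT and 251.1 in ESAM-KO, so a ratio is 0.32 lower on the log2 scale than the intensities alone give. A probe has a measured ratio where it was well above background on both arrays. Where it was so on WT alone, the ratio is a bound, taken against the lowest intensity well above background in ESAM-KO, and is written as "at least". The number of arrays limits the precision. The software's own error of a measured ratio ran from 0.204 to 0.339 log2 units over these genes, and it covers spot noise, not differences between animals. Signal well above background was found for 57.3% of spots in WT and 61.1% in ESAM-KO, and 0 spots were saturated. The median ratio of all 12615 named genes measured on both arrays was -0.02. The targeted gene, Esam, was close to background on both arrays, at 27.4 for WT and 20.6 for ESAM-KO, with a ratio of -0.73 and a software error of 0.31, so it checks the labels weakly. The genes of the erythroid branch were well expressed in both, with Gata1 at 5959 and 5889 and Epor at 1175 and 1371. Of the 8 genes behind the sorting markers that had a ratio, 1 was lower by more than 2-fold, beside 8.43% of all genes. That gene was Ly6a (Sca1), by at least 5.79-fold.

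Neutrophil genes were lower in ESAM-KO pre CFU-E as a set. Of the 36 genes, 28 were measured on both arrays, 3 were well above background in WT alone and 5 on neither array (Bpi, Itgb2l, Arg2, Mgst1 and Clec12a). Among the 31 with a ratio or a bound, 28 (90.3%) stood more than 2-fold lower on the ESAM-KO array, against 8.43% of all 14136 named genes with a ratio, and 0 were higher by that much, against 6.99%. The list was chosen on this contrast, so the gap between these shares describes the list and supports nothing further. All 31 ratios were below 0, as were 51.5% of the ratios of all measured genes. The 28 measured genes had a median ratio of -3.21, or 9.28-fold lower, with a range from -4.68 (Ctsg) to -0.72 (Padi4). By size, 25 of the 31 were lower by more than 3-fold (3.57% of all genes), 23 by more than 4-fold (2.08%) and 18 by more than 8-fold (0.608%). Of the 50 named genes with the lowest measured ratios, 16 were on the list.

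**Figure D1:**
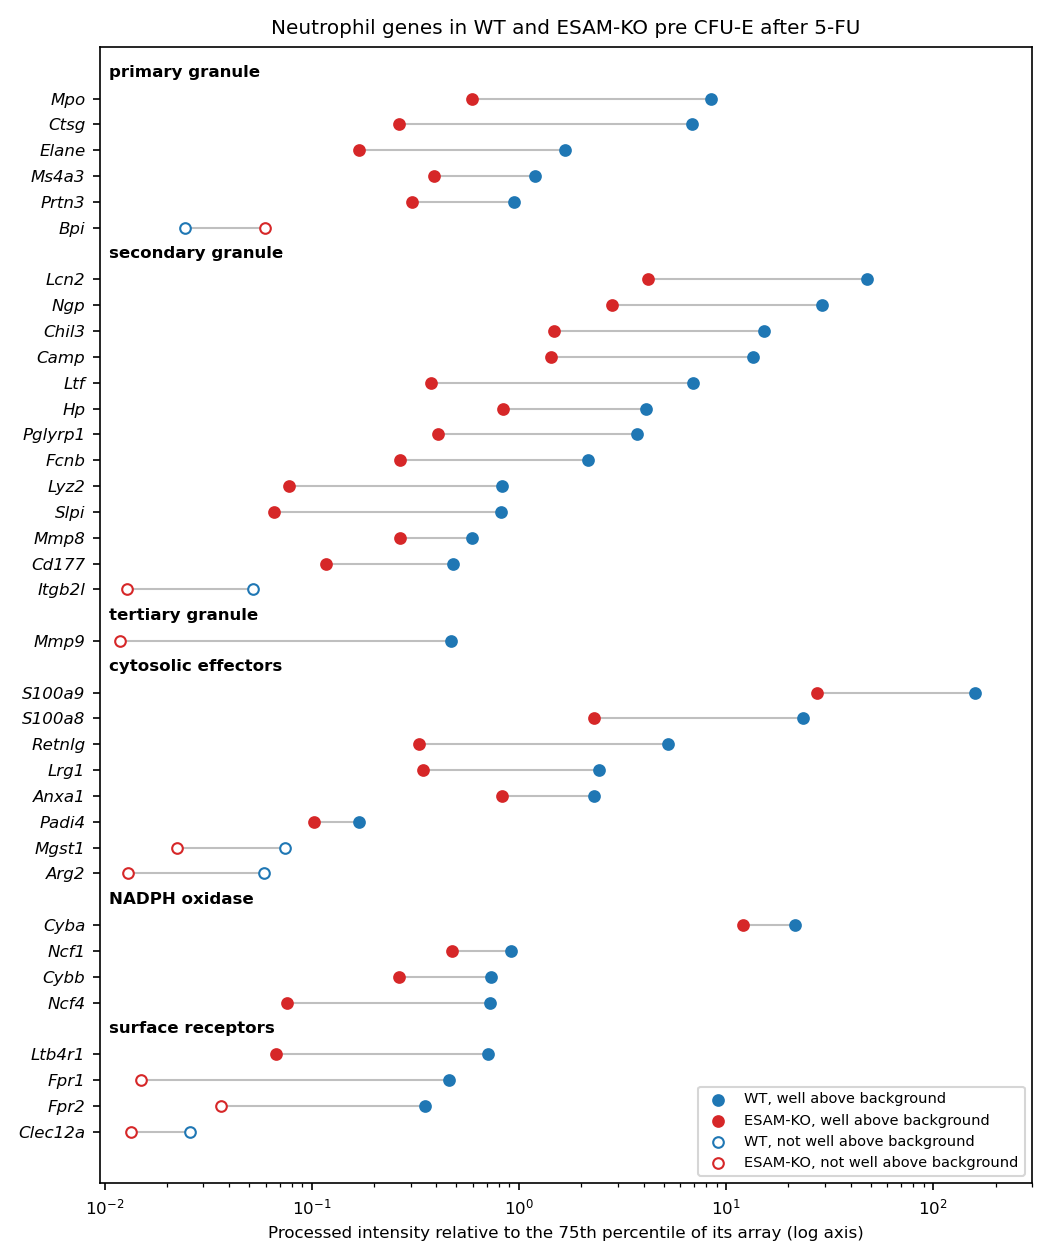
Processed intensity of each neutrophil gene relative to the 75th percentile of its array (horizontal log axis), 1 point for WT (blue) and 1 for ESAM-KO (red), grouped by the stage of the product, with open points for probes not well above background. In all 31 genes with at least 1 filled point the ESAM-KO point lies to the left of the WT point. By WT level these run from S100a9 (158.8 in WT, 27.5 in ESAM-KO) down to Padi4 (0.170 in WT, 0.103 in ESAM-KO).

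**Figure D2:**
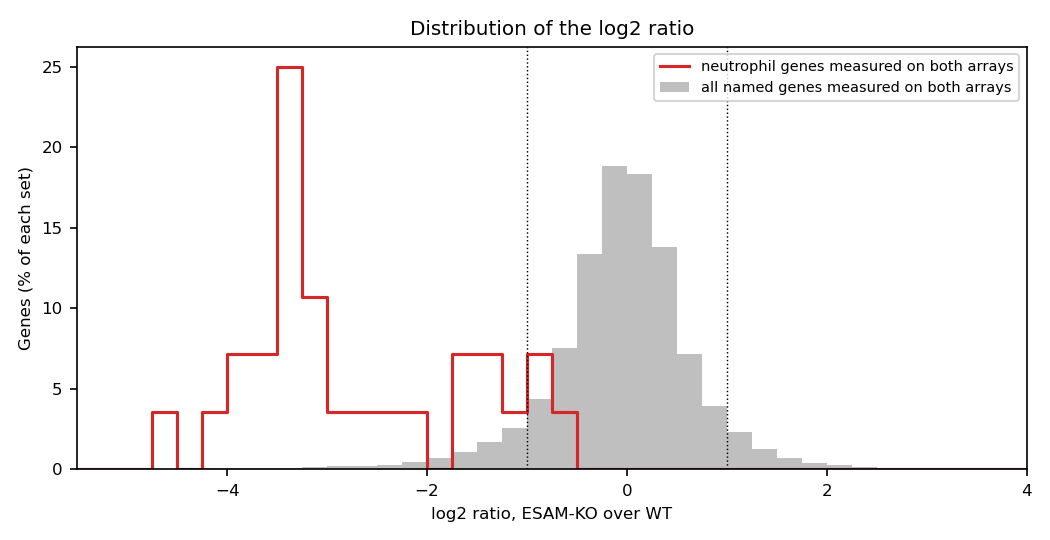
Share of genes (vertical axis, % of each set) by log2 ratio of ESAM-KO over WT (horizontal axis), for all 12615 named genes measured on both arrays (grey bars) and for the 28 neutrophil genes measured on both (red line), with dotted lines at 2-fold. The grey bars centre on a median of -0.02 and the red line on -3.21.

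Primary granule genes were lower in ESAM-KO in 5 of 6, with a median ratio of -3.30. Ctsg, which encodes cathepsin G, a serine protease, read 1373 in WT and 66.6 in ESAM-KO. It was 25.7-fold lower (-4.68 in log2 units), the lowest measured value on the list, which came to -3.58 with normexp. Mpo, which encodes myeloperoxidase, the enzyme that makes hypochlorous acid, read 1703 in WT and 149.9 in ESAM-KO and was 14.2-fold lower. The elastase gene Elane read 334.9 and 42.3 (9.87-fold lower), and Prtn3, the gene of proteinase 3, read 191.7 and 76.6 (3.12-fold lower). Elane and Prtn3 lie next to each other in the genome and differed in the size of their ratios, by more than the software error of 0.24 and 0.21. Ms4a3, a membrane protein gene of granulocyte-monocyte progenitors, read 240.3 and 97.8 (3.06-fold lower). The 2 probes of Bpi, which encodes a protein that binds bacterial lipopolysaccharide, were not well above background on either array. The brighter one read 4.90 in WT and 15.0 in ESAM-KO.

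Secondary granule genes had the same median ratio, -3.30, and 12 of the 13 with a probe were lower. The ones with the highest WT intensity were Lcn2, which encodes the iron-siderophore binding lipocalin 2, and Ngp, a cystatin-like granule protein. Lcn2 read 9604 in WT and 1057 in ESAM-KO (11.3-fold lower). Ngp read 5836 and 706.0 (10.3-fold lower). Chil3, a chitinase-like protein of myeloid cells, read 3082 and 372.5 (10.3-fold lower). All of these remained far above background in ESAM-KO, where the lowest intensity well above background was 13.2. Camp encodes the antimicrobial peptide cathelicidin, and its 2 probes gave close ratios. The brighter one read 2704 and 357.7 (-3.24 as a log2 ratio), and the second gave -3.10. Ltf, the gene of the iron-binding lactoferrin, read 1394 and 94.8 (18.3-fold lower), the lowest ratio among the secondary granule genes.

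Further secondary granule genes were lower by 2.23-fold to 12.4-fold. Pglyrp1, a peptidoglycan recognition protein gene, read 749.9 in WT and 102.5 in ESAM-KO (9.13-fold lower). Fcnb, the gene of ficolin B, a lectin that binds microbial sugars, read 434.7 and 66.8 (8.12-fold lower). Slpi, which encodes an inhibitor of elastase and cathepsin G, read 164.5 and 16.5 (12.4-fold lower), so the inhibitor and its target proteases were lower together. Lyz2, the lysozyme gene of myeloid cells, read 166.9 and 19.6 (10.6-fold lower). Its near-identical neighbour Lyz1, not on the list and chosen after its value was seen, read 349.5 and 63.3, a log2 ratio of -2.78, and cross-hybridisation between such copies was not tested. The smallest differences were those of Hp, Cd177 and Mmp8. Hp, the gene of the hemoglobin scavenger haptoglobin, read 826.5 and 209.5 (4.92-fold lower). Cd177, a surface glycoprotein of the granule membrane, read 97.2 and 29.4 (4.12-fold lower). Mmp8, neutrophil collagenase, read 120.1 and 67.1 (2.23-fold lower), and its log2 ratio of -1.16 came to -0.84 without scaling and to -0.64 with normexp, inside 2-fold in both. Itgb2l, an integrin beta-like gene, read 10.5 and 3.22, not well above background on either array.

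Mmp9, gelatinase B, was the sole gene of the tertiary granule on the list and was present as 10 spots, of which 8 were used on both arrays. The spots read from 80.7 to 106.0 with a median of 94.4 in WT, all 8 well above background. In ESAM-KO they read from 2.62 to 3.46 with a median of 2.89, and 0 of the 8 were well above background. The other 2 spots were left out as outliers on ESAM-KO, where they read 6.81 and 9.41, beside 75.8 and 81.1 in WT. Over the 8 spots used, Mmp9 was at least 8.94-fold lower (-3.16 in log2 units). With the outliers kept, the bound was -3.11. Spots of 1 probe repeat the measurement of the same RNA pool and are not replicates.

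The group labelled cytosolic effectors, which also holds genes of secreted and microsomal products, had a median ratio of -2.67. Of its 6 genes with a ratio, 5 were lower by more than 2-fold. S100a8 and S100a9 encode the subunits of calprotectin, the zinc and calcium binding complex that makes up much of the neutrophil cytosol. S100a9 read 31988 in WT and 6901 in ESAM-KO (5.78-fold lower). S100a8 read 4734 and 580.1 (10.2-fold lower). Both remained far above background in ESAM-KO. Retnlg, a resistin-like secreted protein gene, read 1054 and 82.7 (15.9-fold lower). Lrg1, a leucine-rich glycoprotein gene, read 490.3 and 86.8 (7.04-fold lower). Anxa1, the gene of annexin A1, which limits neutrophil recruitment, read 463.3 and 207.1 (2.79-fold lower) on one probe and 229.9 and 76.2, a log2 ratio of -1.91, on the other. Padi4, the histone-citrullinating enzyme of extracellular trap formation, read 34.3 and 25.8, a log2 ratio of -0.72 that stayed within 2-fold, and its second probe was not well above background. Arg2 (arginase 2) and both probes of Mgst1 (a microsomal glutathione transferase) were not well above background either, with intensities of at most 14.9.

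The 4 subunit genes of the NADPH oxidase, the complex that makes superoxide, differed among themselves, with a median of -1.22. Cybb and Cyba encode the membrane-bound pair gp91phox and p22phox. Cybb read 148.6 in WT and 66.0 in ESAM-KO (2.81-fold lower), a ratio of -1.49 that came to -0.93 with normexp, inside 2-fold. Cyba, which is expressed well beyond neutrophils, read 4336 and 3028, a ratio of -0.84, and its second probe gave -0.83. Ncf1 and Ncf4 encode cytosolic subunits. Ncf1 (p47phox) read 183.8 and 119.0, a ratio of -0.95, which passed 2-fold only with median scaling, at -1.07. Ncf4 (p40phox) read 146.7 and 19.1 (9.58-fold lower). Ncf1, Cyba and Padi4 lay just inside the 2-fold limit, and Mmp8, at -1.16, lay just outside it. Anxa1 at -1.48 and Cybb at -1.49 lay further outside. Anxa1 stayed past 2-fold in all 10 alternatives run at that threshold.

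All 3 surface receptor genes with a ratio or bound were lower. Fpr1 and Fpr2 encode receptors for formylated peptides of bacteria and mitochondria and are neighbours in the genome. Fpr1 read 92.5 in WT and 3.78 in ESAM-KO (at least 8.77-fold lower). Fpr2 read 71.2 and 9.15 (at least 6.75-fold lower), a bound that came to -0.97 on the log2 scale with normexp, inside 2-fold. Ltb4r1, the high-affinity leukotriene B4 receptor, read 143.2 and 16.9 (10.6-fold lower). Clec12a, an inhibitory lectin receptor, read 5.22 and 3.35 and was not well above background.

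The 250 bases before the annotated start of 6 genes are printed from RefSeq (build GRCm38.p6), 5′ to 3′ on the strand of the gene. These are the genes with the largest ratios among those whose probes all passed 2-fold and which had a window in the table, and Lcn2 was the brightest of them. Capitals mark exact matches, on either strand, to short motifs of factors that act in blood cells. The letters searched were TTGCNNAA for C/EBP, GAGGAA for PU.1, AGATAA for GATA and TGTGGT for RUNX factors, and no marked matches overlap in these windows.
Ctsg: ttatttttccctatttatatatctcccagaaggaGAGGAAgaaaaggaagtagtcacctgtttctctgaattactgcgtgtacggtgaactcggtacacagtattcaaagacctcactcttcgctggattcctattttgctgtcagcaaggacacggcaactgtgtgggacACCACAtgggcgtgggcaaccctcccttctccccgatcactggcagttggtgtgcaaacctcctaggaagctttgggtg
Ltf: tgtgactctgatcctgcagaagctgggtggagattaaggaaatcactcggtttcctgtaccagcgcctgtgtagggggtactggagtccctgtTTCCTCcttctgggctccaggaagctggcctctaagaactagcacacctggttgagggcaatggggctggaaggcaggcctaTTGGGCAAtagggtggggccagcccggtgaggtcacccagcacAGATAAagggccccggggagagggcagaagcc
Retnlg: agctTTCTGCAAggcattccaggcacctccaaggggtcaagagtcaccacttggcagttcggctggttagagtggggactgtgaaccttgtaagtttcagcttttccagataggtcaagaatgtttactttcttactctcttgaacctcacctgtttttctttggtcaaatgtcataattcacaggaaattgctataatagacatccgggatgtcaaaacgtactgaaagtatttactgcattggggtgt
Mpo: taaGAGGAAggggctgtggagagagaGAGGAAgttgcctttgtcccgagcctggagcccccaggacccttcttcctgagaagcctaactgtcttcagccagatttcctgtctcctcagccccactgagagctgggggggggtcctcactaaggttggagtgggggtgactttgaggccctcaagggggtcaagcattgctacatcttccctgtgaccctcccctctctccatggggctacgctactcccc
Slpi: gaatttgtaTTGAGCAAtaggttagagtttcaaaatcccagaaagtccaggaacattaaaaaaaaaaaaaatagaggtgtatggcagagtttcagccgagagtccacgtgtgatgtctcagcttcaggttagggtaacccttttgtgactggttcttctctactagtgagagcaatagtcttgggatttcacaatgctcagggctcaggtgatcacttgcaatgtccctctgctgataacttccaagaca
Lcn2: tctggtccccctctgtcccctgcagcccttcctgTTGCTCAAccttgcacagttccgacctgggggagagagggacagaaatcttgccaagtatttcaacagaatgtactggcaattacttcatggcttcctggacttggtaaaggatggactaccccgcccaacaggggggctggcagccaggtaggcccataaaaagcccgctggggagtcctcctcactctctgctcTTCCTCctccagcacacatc

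The Ltf window at chr9:111019042-111019291 (plus strand) held a PU.1 match starting 157 bases before the start, a C/EBP match at 75 and a GATA match at 32. The Lcn2 window at chr2:32387740-32387989 (minus strand) held C/EBP at 216 and PU.1 at 20. The Ctsg window at chr14:56102575-56102824 (minus strand) held PU.1 at 216 and RUNX at 79, with no C/EBP match. The Mpo window at chr11:87793534-87793783 (plus strand) held PU.1 matches at 247 and 224. Retnlg at chr16:48872358-48872607 (plus strand) and Slpi at chr2:164356508-164356757 (minus strand) each held 1 C/EBP match, at 246 and 241. Over all genes of the list, 33 had a window, with 34 windows in all, while Arg2, Hp, Mmp9 and Ncf4 had none in the table. The PU.1 letters stood in 18 of the 34 windows (52.9%), against 23.3% of all 32851 windows. The C/EBP letters stood in 11 (32.4%) against 9.56%, the GATA letters in 7 (20.6%) against 9.99% and the RUNX letters in 6 (17.6%) against 14.0%. A match is a description of the letters and not evidence of binding, and these shares were not tested.

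Of 40 other genes typical of neutrophils that were not on the list, 35 had a ratio or bound, and 17 of these were lower by more than 2-fold and 0 higher, beside 8.43% and 6.99% of all genes. Their measured median was -0.83. Their summed intensity relative to the 75th percentile was 790.5 in WT and 761.9 in ESAM-KO. The brightest genes weigh most in that sum, and most of it came from Itgam and Csf3r. Among transcription factors, Spi1, which encodes PU.1, read 439.8 in WT and 36.9 in ESAM-KO (14.9-fold lower). Cebpe, required for secondary granule formation, read 72.1 and 13.1 (at least 6.84-fold lower). Gfi1, a repressor needed for neutrophil maturation, read 60.9 and 3.51 (at least 5.77-fold lower). Cebpa, the C/EBP factor that acts earliest in the lineage, had a ratio of 0.52, so not all factors of the lineage were lower. Serpinb1a, an inhibitor of neutrophil proteases, had a ratio of -4.03, and the small secreted protein gene Wfdc21 of -3.93, within the range of the granule genes. The chemokine receptor Cxcr2 (-1.24) and the integrin subunit Itgb2 (-1.18) were closer to the limit.

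Some genes of the same lineage lay within 2-fold. Csf3r, the receptor for G-CSF, had a ratio of 0.28 and an intensity of 50144 in WT and 75698 in ESAM-KO. Trem1 stood at 0.36, and Rac2, a small GTPase of the oxidase complex, at -0.33. Itgam, the gene of Mac1, which the Lin antibodies recognise, had 3 probes that disagreed. Its brightest probe read 76375 and 82076, a ratio of -0.21. The other 2 gave -1.54 and -0.55 at intensities of at most 269.6, so no single direction past 2-fold can be given for Itgam. Ly6g, the Gr1 antigen of mature neutrophils, was matched to no probe.

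**Figure D3:**
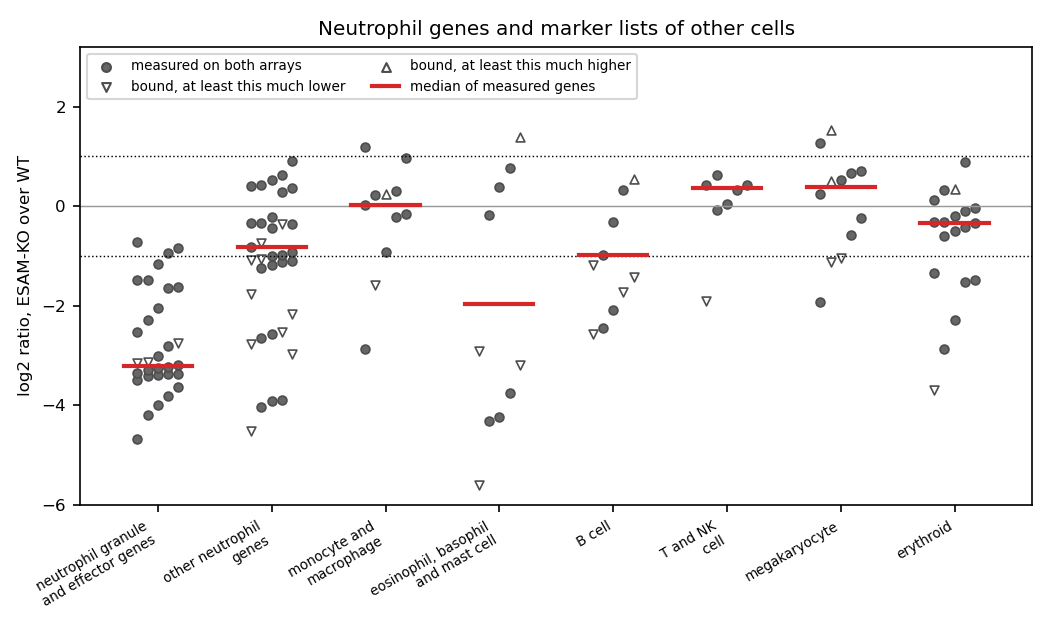
Log2 ratio of ESAM-KO over WT (vertical axis) for each gene with a ratio, by list (horizontal axis), with circles for measured genes, open triangles for bounds and a red bar for the median of measured genes. The neutrophil granule and effector genes have a median of -3.21, and the eosinophil, basophil and mast cell list is the next lowest at -1.97.

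Markers of other cells that such a sort could hold were read from lists chosen by name, and their counts past 2-fold stand beside the 8.43% lower and 6.99% higher of all genes. Eosinophil, basophil and mast cell genes were lower in 6 of 10 and higher in 1 (Ms4a2), with a summed intensity relative to the 75th percentile of 17.3 in WT and 2.65 in ESAM-KO. The eosinophil granule genes led it, with Prg2 (major basic protein) at -3.76, Epx (eosinophil peroxidase) at -4.24, Ear1 at -4.33 and Prg3 at least 48.8-fold lower. On the same list, Il5ra at 0.38, Ccr3 at -0.17 and Tpsb2 at 0.77 lay within 2-fold. B cell genes were lower in 6 of 10 and higher in 0, with a measured median of -0.99. The lower ones were Vpreb1 (-2.45) and Cd79b (-2.09) and, as bounds, Igll1, Ebf1, Vpreb3 and Blnk. The summed level of the B cell list was 13.9 in WT and 14.4 in ESAM-KO. Most of it came from Cd22 alone, which lay within 2-fold, at 2152 in WT and 3363 in ESAM-KO. Monocyte and macrophage genes were lower in 2 of 11 (Vcam1 and F13a1) and higher in 1 (C1qa), with a median of 0.02 and summed levels of 39.1 and 37.1. Most of that level came from the brightest Csf1r probe, at 6554 in WT and 7310 in ESAM-KO. The other Csf1r probes read at most 63.2 in WT. Mrc1, Ccr2, Irf8, C1qc and Ms4a6c were among the genes of that list that were not well above background on either array. T and NK cell genes were lower in 1 of 7 (Cd3d) and megakaryocyte genes lower in 3 of 12 and higher in 2, with medians of 0.37 and 0.38. Erythroid genes were lower in 6 of 19 and higher in 0, with a median of -0.34. The neutrophil granule and effector genes themselves summed to 362.7 in WT and 58.6 in ESAM-KO. The other neutrophil genes summed to 790.5 and 761.9, but most of this came from Itgam and Csf3r. By count, 17 of the 35 other neutrophil genes with a ratio or bound were lower. What part neutrophil or eosinophil cells within the sorted fraction had in these values was not tested.

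**Figure D4:**
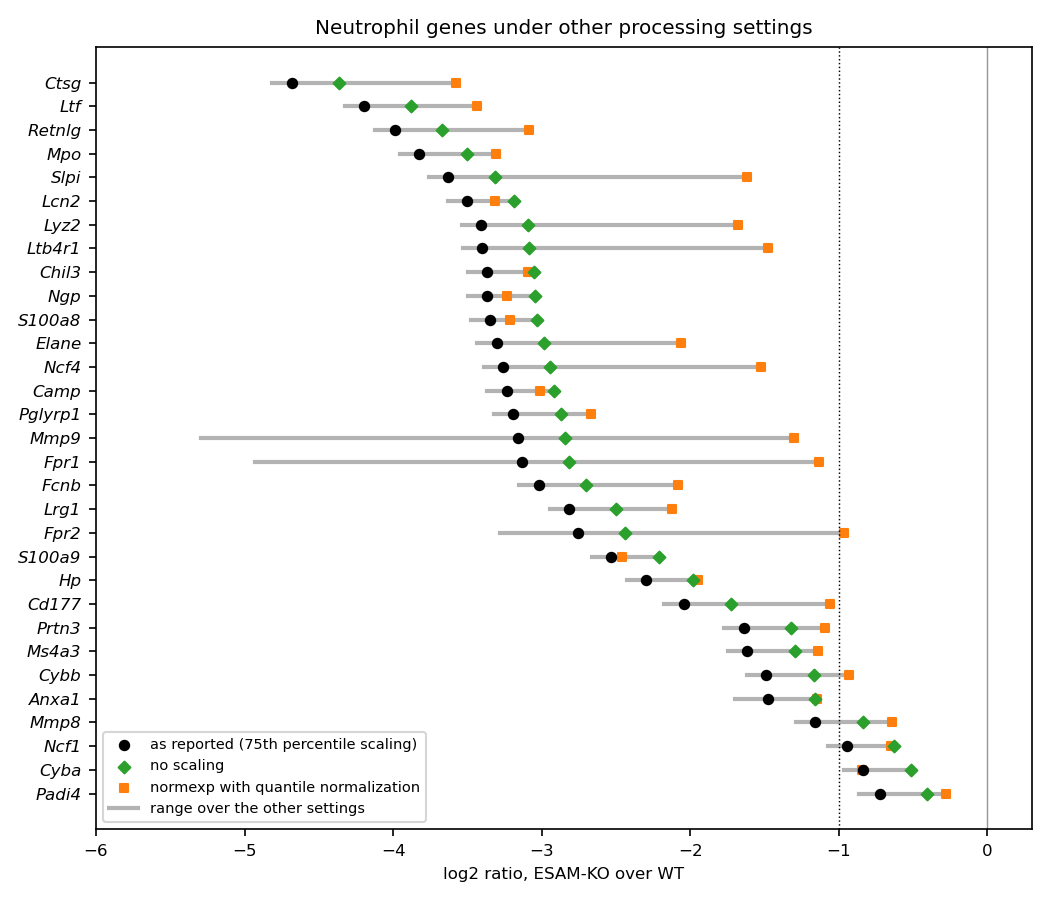
Log2 ratio of ESAM-KO over WT (horizontal axis) of each neutrophil gene with a ratio (1 line per gene), as reported (black), without scaling (green), with normexp and quantile normalisation (orange) and as the range over all other settings (grey). The black points run from -4.68 to -0.72 and every point lies below 0, with the orange points closest to 0 for the dim genes.

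The size of the ratio was smaller for most genes with normexp and quantile normalisation, a setting that changes the background model, the offset, the scaling and the input signal together. There the median of the measured genes came to -2.0, and Slpi stood at -1.62, Lyz2 at -1.68, Ncf4 at -1.52 and Ltb4r1 at -1.48. Mmp9 came to -1.30, Fpr1 to -1.14, Cd177 to -1.06 and Elane to -2.06. Genes with a WT intensity above 1000 moved too, with Ctsg at -3.58, Ltf at -3.43, Mpo at -3.30 and Retnlg at -3.09, whereas Lcn2 at -3.32 and S100a8 at -3.21 moved by less than the software error. Of the 28 genes lower by more than 2-fold, 25 were still so with normexp, the exceptions being Mmp8, Cybb and Fpr2.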

How the data were processed

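Labelled RNA of pre CFU-E, pooled from 3 mice after 5-FU, was hybridised to 1 array for each genotype. The authors deposited scanner files made with Agilent Feature Extraction 10.10.1.1, whose processed intensity is background-subtracted for every spot and carries no scaling between arrays. The deposited flags for outliers and for signal well above background were also used, and the deposited series table, which holds the same intensity, served as an alternative. The study's methods state that values were normalised, without the method, and compared by a 2-fold criterion.

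From these, the log2 of each intensity, less the array's 75th percentile on that scale, was computed in Python 3.11.15 with pandas 2.3.3. Control spots and 254 outlier spots were left out, spots of a probe were averaged, and a probe was well above background where over 50% of its spots were. A gene was represented by the brightest of its probes. Probe accessions were matched to RefSeq symbols (GRCm38.p6), which named 27235 probes (48.9%). A bound compares the well-measured array with whichever is higher on the other array, the dim probe itself or the dimmest probe that still passes the background flag. Normexp with an offset of 50 was run in limma 3.58.1 on median spot and background signals. The calculations were checked on data with known answers. With 1 array per genotype no test was possible, and the arrays shared 1 slide and 1 scan, so no batch could be fitted.

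The genes and the marker lists were chosen with earlier results of these data known. All listed genes are named, with values for those that had a ratio or bound. The targeted gene and the defining or few called markers of the other lists are named too. Sequences are shown for at most 6 genes by size of the ratio. Motifs were searched in the 250 bases before each start.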

Additional observations from a re-analysis of the deposited data

How the results depend on the processing

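The count of neutrophil genes lower by more than 2-fold was 28 and ranged from 25 to 31 over the alternatives at that threshold, and 25 of the 28 passed it in every such alternative that gave them a value, the exceptions being Mmp8, Cybb and Fpr2. At 3-fold and 4-fold the count was 25 and 23. No ratio changed sign in any of the 307 values recomputed for listed genes with a ratio, 54 of which moved by more than the software error. The median of the list came to -2.90 without scaling and to -2.0 with normexp and quantile normalisation. Without a filter on dim probes 1 listed gene was higher, Bpi, whose probe is not well above background. Of the other neutrophil genes, 17 were lower, a number that came to 11 without scaling, 9 with normexp, 9 when both arrays had to be well above background, 11 at 3-fold and 10 at 4-fold, and 1 gene (Il1b) was higher without scaling. Among all named genes, 54.7% of the calls past 2-fold were lower, which came to 28.8% without scaling, 66.8% with median scaling, 67.3% with normexp and 65.5% at 4-fold. The median of all measured genes shifted by 0.32 without scaling, by -0.13 with median scaling and by -0.12 without the filter. The cause of these moves was not tested. The slide as a block was not run, since both arrays were on 1 slide. No paired analysis was possible because there is 1 array for either genotype. Signal over background limits the dim receptors and Mmp9 to bounds.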

Other observations

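The genes next to the neutrophil genes were read for comparison. The 28 genes lower by more than 2-fold had 50 protein-coding neighbours in the RefSeq gene order that were not on the list, and 35 of these had a ratio, with a median of 0.12. Of the 35, 5 were lower by more than 2-fold (Ccdc61, Ceacam10, Chil4, Csf2rb2 and Lyz1), beside 8.43% of all genes with a ratio. Another 6 were higher by that much (Cdc25a, Dhodh, H2al1o, Ltb4r2, Ms4a2 and Txnl4b), beside 6.99%, and 24 were within 2-fold. Txnl4b and Dhodh lie on either side of Hp. Dhodh had a log2 ratio of 1.40, and Txnl4b, well above background in ESAM-KO alone, of at least 3.24. Lpo and Cfd, the neighbours of Mpo and Elane, were among the 24. Lyz1 and Chil4 are close relatives of the listed Lyz2 and Chil3, and Chil4 was at least 5.65-fold lower. Csf2rb2, a beta chain gene of the interleukin-3 receptor that lies beside Ncf4, was at least 13.1-fold lower.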
